A study of Canis lupus familiaris with 33 samples.

Results

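Nuclear pore and nuclear transport genes were examined in lymph nodes of dogs with diffuse large B cell lymphoma (DLBCL) and of healthy dogs. Within this gene group the members were taken by symbol, with a rule that uses no measured value. A probeset was included when its only gene symbol was that of a numbered nucleoporin (NUP), importin alpha or beta (KPNA, KPNB), other importin (IPO), transportin (TNPO) or exportin (XPO), or was CSE1L, RAN, RANBP1, RANGAP1 or TPR. The rule found 116 of 43035 probesets, which stood for 49 of 15115 genes. RAN had 0 probesets with its symbol alone and is not described here.

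The 33 arrays held 7 biopsies of DLBCL relapsed after chemotherapy, 16 biopsies of treatment naïve DLBCL, and 10 samples of healthy nodes from dogs euthanised for conditions other than lymphoma. Dogs with relapsed DLBCL were 6.4 to 11.8 years old and were sampled 13 to 672 days after treatment as labelled. Dogs with naïve DLBCL were 2.7 to 13.3 years old, and ages of the healthy dogs are not given in the labels used here. Among relapsed biopsies 1 dog received tramadol and 6 received no medication. Among naïve biopsies 2 dogs received rimadyl, 1 received doxycycline, 6 received none and 7 had no entry, as did every healthy sample. Arrays with the same case number were averaged, since 4 healthy arrays came from 1 dog, referred to below as healthy dog 1, and the other healthy dogs are numbered in label order. A further dog gave a naïve and later a relapsed biopsy. This left 22 DLBCL dogs and 7 healthy dogs. All samples were whole node tissue, so fewer cells of a type and less RNA per cell cannot be told apart in any value below.

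Traffic between nucleus and cytoplasm passes through the nuclear pore complex, a large channel in the nuclear envelope built from repeated copies of the nucleoporins. Importins carry cargo proteins with a nuclear localisation signal inward, exportins carry cargo outward, and the small GTPase RAN, kept in its GTP form inside the nucleus and its GDP form outside, sets the direction. XPO1 (also called CRM1) exports proteins with a leucine-rich export signal, among them several tumour suppressors, and is the target of the drugs verdinexor and selinexor, of which verdinexor was developed for canine lymphoma.

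Several properties of the samples ran alongside disease. The RNA integrity number (RIN), a scale on which intact RNA scores 10, ranged from 8.9 to 10 in DLBCL dogs and from 5.8 to 9.15 in healthy dogs. All 15 measured cell division genes were higher in DLBCL, with a median log2 difference of 1.21, and their mean level per dog was 9.93 to 11.63 in DLBCL, against 8.76 to 10.59 in healthy nodes. Of 11 measured T cell markers 9 were lower in DLBCL, and their mean level was 7.75 to 10.05 in DLBCL, against 10.52 to 11.55 in healthy nodes. Of 9 measured B cell markers 2 were higher, CD79A among them at 13.00 in DLBCL and 12.28 in healthy nodes, 3 of 10 macrophage markers were lower, and of 10 stroma and endothelium markers 1 was higher and 3 were lower. A pair of tumours stood apart. The naïve DLBCL sample 5 had a B cell marker mean of 8.21, below all other samples, and the relapsed DLBCL sample 18 had the lowest cell division mean of all tumours, 9.93.

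Nuclear pore and transport genes were often higher in DLBCL and in no case lower. A gene was read from its brightest probeset, and a difference was called at an adjusted p under 0.05 in limma over all probesets. Of the 49 genes 23 were higher in DLBCL, 0 were lower and 26 did not pass. Among all 15115 genes 20.0% were called higher and 14.8% lower. The median log2 difference of the 49 genes was 0.23, against 0.06 for all genes. Differences were above 0 for 47 of the 49, and for 9112 of all 15115 genes. The changes were modest in size. They ranged from -0.09 to 1.25 on the log2 scale, and only IPO7 and NUP210L exceeded a fold of 2. For IPO7 and NUP210L, every DLBCL dog lay above every healthy dog. Among all genes such a separation was seen in 0.562% upward and 1.17% downward. Leaving out DLBCL samples 5 and 18 gave 26 genes higher.

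**Figure D1:**
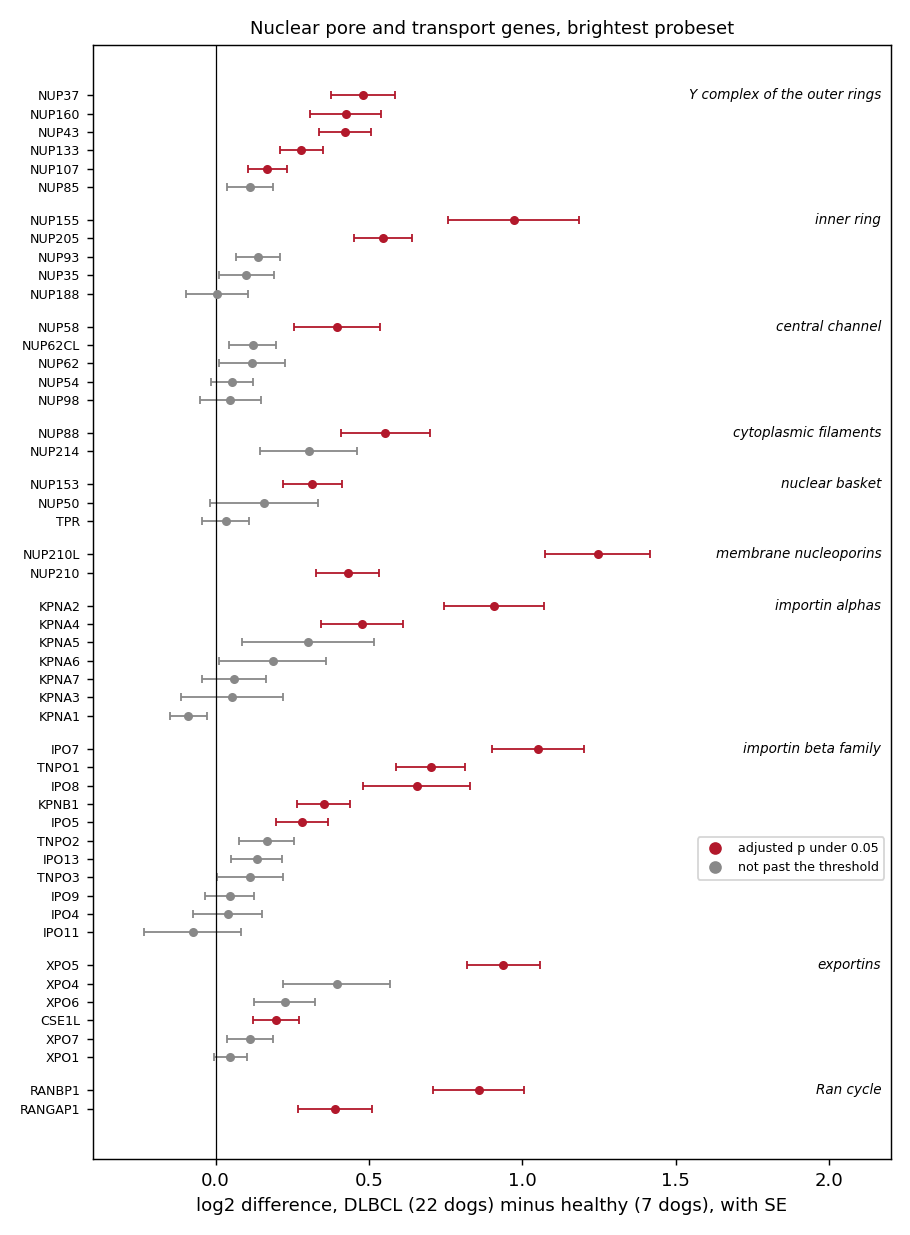
DLBCL (22 dogs) minus healthy (7 dogs), on the log2 scale, for the 49 genes at their brightest probeset, grouped by role, with standard errors as bars. Red points passed an adjusted p of 0.05. The 23 red points all lie right of 0, NUP210L at 1.25 and IPO7 at 1.05 farthest, while XPO1 lies at 0.05.

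The scaffold of the pore is formed by stacked rings. The Y complex builds the outer rings, and 5 of its 6 measured members were higher in DLBCL, with a median log2 difference over the 6 of 0.35. NUP37 averaged 12.61 ± 0.26 in DLBCL and 12.13 ± 0.15 in healthy nodes (log2, SD, n = 22 and 7), a difference of 0.48 (SE 0.11, adjusted p = 0.00075). NUP43 had 11.95, 12.37 and 12.66 as its lowest, median and highest level in DLBCL dogs, against 11.72, 11.99 and 12.06 in healthy dogs. In 20 of 22 DLBCL dogs NUP43 lay above all healthy dogs (difference 0.42, adjusted p = 0.00034). NUP160 differed by 0.42 and NUP133 by 0.28, and NUP107 passed narrowly at 0.17 (adjusted p = 0.044), a call that was lost when any healthy dog but the fourth was left out (adjusted p between 0.051 and 0.11). NUP85 did not pass at its brightest probeset, with 11.86 in DLBCL and 11.75 in healthy nodes, while its other probeset was higher by 0.59 and passed.

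The inner ring anchors the scaffold to the membrane and the central channel, and 2 of its 5 measured members were higher. NUP155 had levels of 5.68, 6.90 and 8.24 (lowest, median, highest) in DLBCL dogs, against 5.09, 6.08 and 6.24 in healthy dogs. Most DLBCL dogs, 20 of 22, lay above the healthy range, and the difference was 0.97 (SE 0.21, adjusted p = 0.00078). NUP205 averaged 10.84 ± 0.23 in DLBCL and 10.29 ± 0.15 in healthy nodes, a difference of 0.55 (adjusted p = 6.2e-05). Its dimmer probeset went the other way without passing, at -0.23, and with the mean of both NUP205 did not pass (0.16, adjusted p = 0.12). NUP93 (0.14) and NUP35 (0.10) did not pass at their brightest probeset, and NUP93 did without DLBCL samples 5 and 18 (adjusted p = 0.032).

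The channel itself is lined by nucleoporins with phenylalanine-glycine repeats, which bind the transport receptors. Of its 5 measured members only NUP58 was higher, at 8.93 ± 0.33 in DLBCL and 8.53 ± 0.33 in healthy nodes (difference 0.40, adjusted p = 0.031). That call was lost when healthy dog 1, 2, 3 or 5 was left out (adjusted p between 0.056 and 0.1). NUP62 (0.12) and NUP62CL (0.12) did not pass. On the cytoplasmic face, where export complexes are taken apart, NUP88 was higher by 0.55 (adjusted p = 0.0039), with 18 of 22 DLBCL dogs above the healthy range. Its partner NUP214 did not pass, at 8.91 ± 0.40 in DLBCL and 8.60 ± 0.27 in healthy nodes. In the nuclear basket NUP153 was higher by 0.32 (adjusted p = 0.013), while NUP50 (0.16) and TPR (0.03) did not pass.

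NUP210 and NUP210L, the membrane-spanning members measured, were both higher. NUP210L, a paralogue of NUP210 known mainly from testis in human and mouse, had levels of 5.61, 6.42 and 7.22 in DLBCL dogs, against 5.07, 5.18 and 5.55 in healthy dogs. The groups did not overlap, and the difference was 1.25 (95% interval 0.90 to 1.59, adjusted p = 2.5e-06), a fold of 2.37. NUP210L was read from a single probeset with a low signal. Its medians, 6.42 in DLBCL and 5.18 in healthy dogs, lay below the median of every array (6.85 to 6.97). Both lay above the highest mean of the tag control probesets of the array, 4.56. By the suffix of its name, the NUP210L probeset may match more than a single transcript, which was not tested. NUP210 averaged 7.10 ± 0.26 in DLBCL and 6.67 ± 0.14 in healthy nodes, a difference of 0.43 (adjusted p = 0.0017). Its 5 probesets disagreed, with differences between -0.48 and 0.49, of which 2 passed, and with the mean of its probesets it did not pass (0.15, adjusted p = 0.13).

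Importin alphas are the adaptors that read the localisation signal, and 2 of 7 were higher. KPNA2, the importin alpha most closely tied to dividing cells, had levels of 12.22, 13.19 and 13.79 in DLBCL dogs, against 11.59, 12.41 and 12.71 in healthy dogs. In 19 of 22 DLBCL dogs it lay above all healthy dogs, and the difference was 0.91 (SE 0.16, adjusted p = 9e-05). All 3 of its probesets were higher, by 0.55 to 1.69. A further 2 probesets carry its symbol together with others and were not used. Whether the probesets used also match other transcripts was not tested, so its level is uncertain. KPNA4 was higher by 0.48 (adjusted p = 0.0065), with 10 of 22 DLBCL dogs above the healthy range. KPNA5 (0.30) and KPNA6 (0.19) did not pass. KPNA1 was 11.40 in DLBCL and 11.49 in healthy nodes. It and IPO11, an import receptor of the beta family, gave the only differences below 0, and neither passed. IPO11 averaged 8.32 in DLBCL and 8.40 in healthy nodes, with medians of 8.25 in DLBCL and 8.24 in healthy nodes. Its healthy mean rested on healthy dog 4 at 9.47, where the other 6 healthy dogs lay between 8.12 and 8.28, and without that dog the difference was 0.10 (adjusted p = 0.6).

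The importin beta family binds RAN directly, and 5 of 11 measured members were higher. IPO7, which imports ribosomal proteins and histone H1 with KPNB1, had levels of 9.35, 9.82 and 10.60 in DLBCL dogs, against 8.37, 8.83 and 9.26 in healthy dogs. The groups did not overlap, the difference was 1.05 (95% interval 0.74 to 1.36, adjusted p = 4.8e-06) and the fold 2.07. TNPO1, the receptor for RNA-binding proteins such as HNRNPA1, was higher by 0.70 (adjusted p = 2.2e-05), and 20 of 22 tumours lay above the healthy range. IPO8 was 7.48 ± 0.45 in DLBCL and 6.82 ± 0.25 in healthy nodes (difference 0.65, adjusted p = 0.0045). KPNB1, importin beta itself, was higher by 0.35 (adjusted p = 0.0024) and IPO5 by 0.28 (adjusted p = 0.011). TNPO2 (0.17) and IPO13 (0.13) did not pass.

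**Figure D2:**
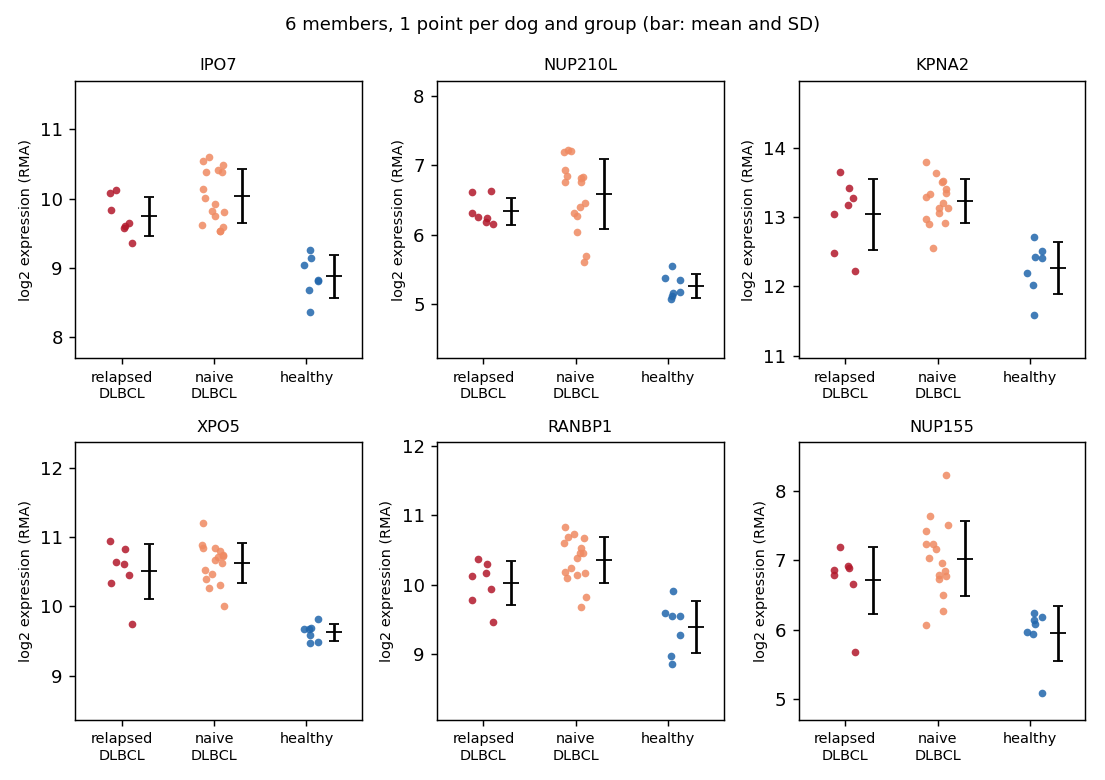
Log2 expression of 6 genes with large differences in relapsed DLBCL (7 biopsies), naïve DLBCL (16 biopsies) and healthy nodes (7 dogs), 1 point per dog and group, with mean and SD beside the points; each panel spans 4 log2 units. IPO7 and NUP210L show no overlap between either DLBCL group and healthy nodes, while KPNA2, XPO5, RANBP1 and NUP155 overlap in a few dogs.

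Among the exportins 2 of 6 were higher. XPO5, which exports microRNA precursors, had levels of 9.74, 10.63 and 11.07 in DLBCL dogs, against 9.47, 9.67 and 9.82 in healthy dogs. Of 22 DLBCL dogs 21 lay above all healthy dogs, and the difference was 0.94 (SE 0.12, adjusted p = 7.6e-07). CSE1L, which returns importin alphas to the cytoplasm, passed narrowly at 0.20 (adjusted p = 0.043), and the call was lost when healthy dog 1, 2, 3, 4 or 5 was left out (adjusted p between 0.057 and 0.14). Its 5 probesets gave differences between 0.04 and 1.18. XPO4 averaged 10.90 ± 0.45 in DLBCL and 10.50 ± 0.27 in healthy nodes, and XPO6 averaged 10.33 ± 0.25 in DLBCL and 10.10 ± 0.10 in healthy nodes. Neither passed, though both did without DLBCL samples 5 and 18 (adjusted p = 0.014 for XPO4 and 0.042 for XPO6). In the RAN cycle both measured genes were higher. RANBP1, which helps GTP hydrolysis by RAN in the cytoplasm, had levels of 9.45, 10.26 and 10.73 in DLBCL dogs, against 8.86, 9.54 and 9.91 in healthy dogs. Of 22 DLBCL dogs 18 lay above the healthy range, with a difference of 0.86 (SE 0.15, adjusted p = 5.6e-05). RANGAP1, the GTPase activator of RAN, was higher by 0.39 (adjusted p = 0.014), with 12 of 22 DLBCL dogs above the healthy range, and did not pass without healthy dog 1 (adjusted p = 0.056). Of the 9 RANGAP1 probesets, with differences between -0.02 and 0.52, only 3 passed.

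XPO1 was represented by 2 probesets, and they gave different answers. The brightest had levels of 13.23, 13.36 and 13.47 (lowest, median, highest) in relapsed DLBCL, 13.26, 13.46 and 13.64 in naïve DLBCL, and 13.25, 13.37 and 13.49 in healthy nodes. The 3 groups overlapped almost entirely, with 15 of 22 DLBCL dogs inside the healthy range, 6 above it and 1 below it. DLBCL dogs averaged 13.42 ± 0.12 and healthy dogs 13.38 ± 0.07, a difference of 0.05 that did not pass (SE 0.05, adjusted p = 0.52). Its 95% interval ran from -0.06 to 0.16, so that a difference at this probeset of more than 0.16 on the log2 scale in either direction lay outside the interval.

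The dimmer probeset had levels of 9.12, 9.41 and 9.78 in relapsed DLBCL, 9.33, 9.77 and 10.20 in naïve DLBCL, and 8.64, 9.04 and 9.38 in healthy nodes. Of 22 DLBCL dogs 19 lay above all healthy dogs and 3 lay within their range. DLBCL dogs averaged 9.67 ± 0.27 and healthy dogs 9.01 ± 0.23, a difference of 0.66 (95% interval 0.43 to 0.89, adjusted p = 4.3e-05) and a fold of 1.58. Against healthy nodes the dimmer probeset was higher by 0.42 in relapsed DLBCL (adjusted p = 0.026) and by 0.76 in naïve DLBCL (adjusted p = 6.9e-06). The brightest probeset passed in neither, at -0.02 in relapsed and 0.08 in naïve DLBCL.

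The disagreement between the XPO1 probesets was itself larger than the spread between dogs. The dimmer minus the brightest probeset was -3.75 ± 0.20 in DLBCL and -4.37 ± 0.18 in healthy nodes, a difference of 0.61 (exact permutation of dogs, 1560780 splits, two-sided, p = 1.3e-06). This contrast was not among the planned tests. It is the gap between the differences of the probesets given above, so its p-value describes that gap and is no independent support. Within DLBCL the probesets followed each other across dogs (Pearson r = 0.75, n = 22), and they did so within healthy nodes too (r = 0.85, n = 7). Signals of different probesets do not compare amounts of RNA, but the brightest lay at the 98.9th percentile of signal and the dimmer at the 76.9th. Over all probesets differences were smaller at the top of the scale. Probesets with a mean above 13 had a median absolute difference of 0.12, against 0.33 for those between 9 and 11. Calls were less far apart, with 23.3% of those above 13 called higher, against 27.1% of those between 9 and 11. By the suffix of its name, the dimmer probeset may match more than a single transcript. Which probeset follows XPO1 RNA more closely was not tested. With the mean of both probesets XPO1 was higher by 0.35 (adjusted p = 0.00066).

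**Figure D3:**
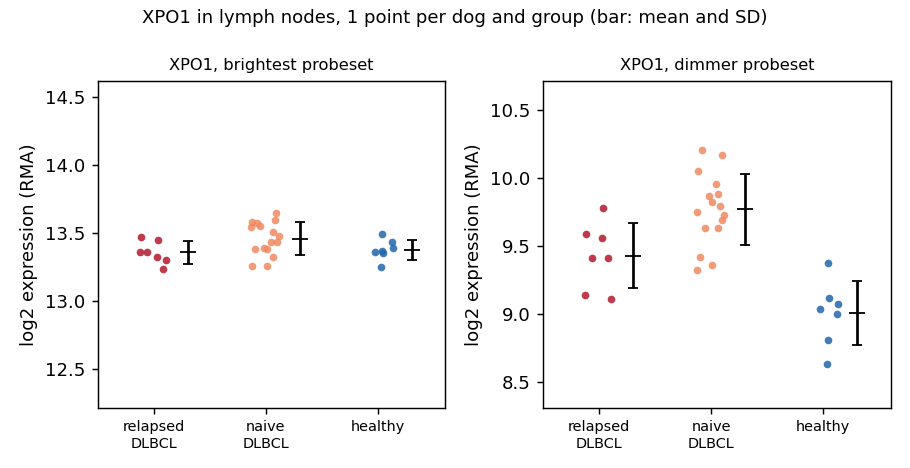
Log2 expression of XPO1 at its brightest (left) and dimmer (right) probeset in relapsed DLBCL (7 biopsies), naïve DLBCL (16 biopsies) and healthy nodes (7 dogs), 1 point per dog and group, with mean and SD; both panels span 2.4 log2 units. The groups overlap at the brightest probeset, near 13.4, while at the dimmer probeset healthy dogs reach 9.38 and naïve tumours reach 10.20.

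XPO1 was not alone in this. Of 116 member probesets 65 were higher in DLBCL and 0 were lower, where 21.8% of the other probesets with 1 symbol were called higher and 12.6% lower, and 109 of 116 differences were above 0. The median over the member probesets was 0.30, against 0.06 over all probesets, and the share of all probesets above 0 was not counted. Probesets of a gene share their target and are not independent. Of 33 genes with more than 1 probeset, the brightest gave a smaller difference than the mean of the others in 25 (75.8%, against 68.4% of all genes with more than 1 probeset). In 13 genes (39.4%, against 16.7%) the brightest did not pass but another probeset did. These were XPO1, XPO4, XPO6, XPO7, TPR, NUP35, NUP54, NUP85, NUP93, NUP98, KPNA1, IPO13 and TNPO3. At least 1 probeset was called higher in 29 of the 33 genes (87.9%, against 35.7%), so members were called more often to begin with. The larger share in the class of 13 is therefore not a separate trait of the members. For TPR, the basket protein, the brightest gave 0.03 while the other 3 gave 0.32, 0.42 and 0.48, all of which passed. Counting a gene when any of its probesets was called higher gave 36 of 49 genes, against 29.1% of all genes.

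**Figure D4:**
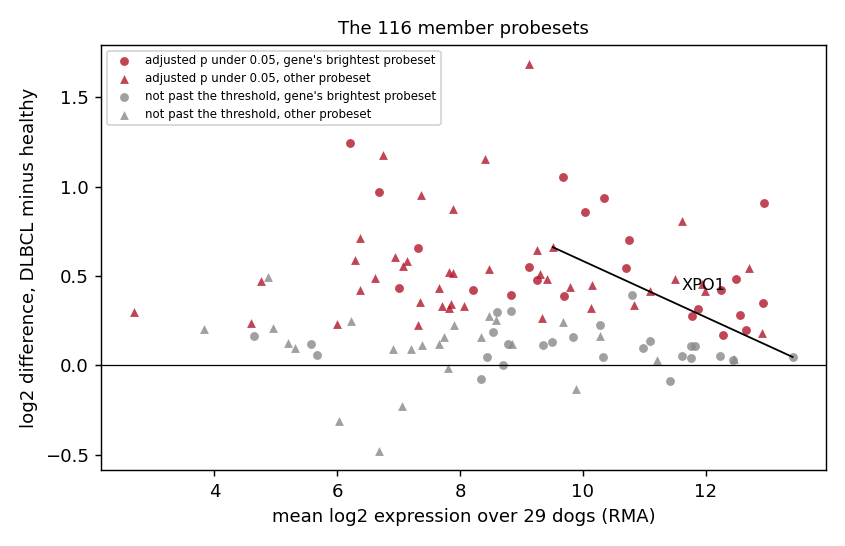
Difference between DLBCL and healthy nodes (log2) against mean log2 signal over 29 dogs for the 116 member probesets. Circles are a gene's brightest probeset, triangles its other probesets, red marks an adjusted p under 0.05, and the line joins the XPO1 probesets at 0.66 and 0.05.

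Relapsed DLBCL was then set against naïve DLBCL, to ask whether these genes differ after chemotherapy. No member passed, and neither did any other gene (0% of all genes higher and 0% lower in limma). At an unadjusted p under 0.05 there were 2 of the 49 members, NUP210 and RANBP1, both lower in relapsed DLBCL. Of all 15115 genes 733 reached this level, so the share among members was no larger than among all genes. RANBP1 had levels of 9.45, 10.12 and 10.37 in relapsed DLBCL, against 9.68, 10.42 and 10.83 in naïve DLBCL. The groups overlapped widely, and the difference of -0.34 had a 95% interval from -0.64 to -0.04. NUP210 differed by -0.26. The largest difference, that of KPNA6, was -0.35 (95% interval -0.72 to 0.03), and that of NUP155 was -0.31. At XPO1 the brightest probeset differed by -0.10 (95% interval -0.22 to 0.02) and the dimmer by -0.34 (-0.58 to -0.10), neither past the adjusted threshold (adjusted p = 0.99 each). Over the 49 genes the median difference was -0.08, against -0.01 for all genes. Of the 15 cell division genes 7 were also lower in relapsed DLBCL at an unadjusted p under 0.05, and 0 passed the adjusted threshold. In the dog sampled at both times, 39 of 49 genes were lower in the relapsed biopsy, with differences from -0.71 to 0.23, and XPO1 differed by -0.22 at the brightest and -0.91 at the dimmer probeset. This is a single pair with no replicate. The share of all genes lower in the relapsed biopsy of this dog was not counted, so the count is not a result about the members.

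The comparisons of each DLBCL group with healthy nodes share the same healthy dogs. Relapsed DLBCL gave 14 of 49 members higher and 0 lower, where 10.8% of all genes were higher and 8.96% lower, with a member median of 0.18. Naïve DLBCL gave 23 of 49 higher and 0 lower, where 20.0% of all genes were higher and 15.1% lower, with a member median of 0.27. IPO7 was higher by 0.87 in relapsed and 1.16 in naïve DLBCL, and XPO5 by 0.88 in relapsed and 0.99 in naïve DLBCL. Relapsed DLBCL had fewer biopsies, 7 against 16.

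RNA integrity moved with these results. With RIN as a covariate only IPO7 remained called among the 49 genes (1.30, adjusted p = 0.034), while 45 of 49 differences were still above 0 and their median was 0.26. Over all genes 101 were then higher and 179 lower, and the share with a difference above 0 was not counted. The ranges of RIN hardly overlapped between DLBCL and healthy dogs, so that integrity and disease can scarcely be told apart by this fit. Healthy dog 1, the only healthy dog with a RIN in the DLBCL range (9.15, the mean of its arrays), had the lowest level of all 7 healthy dogs for 24 of 49 genes and for 13 of the 23 called genes, and the highest for 5 of 49 and for 2 of the 23. The share of all genes for which this dog was lowest or highest was not counted, so these counts are not a result about the members. It also had the lowest cell division mean (8.76) and T cell mean (10.52) of the healthy dogs. Its macrophage (12.19) and stroma and endothelium (11.49) means were the highest of these dogs. At the dimmer XPO1 probeset this dog read 8.81, against a median of 9.06 in the other 6 healthy dogs.

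Within each disease state XPO1 was compared with RIN, with the mean of the cell division genes and with the mean of the T cell markers. With both probesets and both disease states this made 12 relations. In the 22 DLBCL dogs the brightest probeset rose with RIN (Pearson r = 0.62, adjusted permutation p = 0.023; Spearman rho = 0.61, adjusted p = 0.039), and r was 0.51 without the 2 dogs farthest from the median RIN. For the dimmer probeset r with RIN was 0.57 (adjusted permutation p = 0.033), but rho was 0.41 (adjusted p = 0.2) and r without the 2 farthest dogs 0.34, so that it rested on those dogs. With the cell division genes the dimmer probeset gave r = 0.52 (adjusted permutation p = 0.05) and rho = 0.44 (adjusted p = 0.2), so that it did not pass by rank. Its r was smaller without the 2 farthest dogs, at 0.36, and the brightest probeset gave r = 0.24. In the 7 healthy dogs the dimmer probeset gave r = 0.80 with the cell division genes (exact permutation, adjusted p = 0.095) and -0.50 with RIN. No relation with the T cell markers passed. Array days were read from dates in a supplement, matched by sample number. Within these days, r of the brightest probeset with RIN was 0.26 over 8 arrays of the first day and 0.65 over 7 of the second. The third day held only 3 arrays. By treatment it was 0.45 in relapsed and 0.64 in naïve DLBCL. With the cell division genes, r of the dimmer probeset was 0.63 on the first day and 0.61 on the second. By treatment that r was 0.44 in relapsed and 0.495 in naïve DLBCL. For the brightest probeset r with these genes was 0.185 and 0.44 by day, and -0.02 in relapsed and 0.25 in naïve DLBCL. These values within days and groups were not tested.

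**Figure D5:**
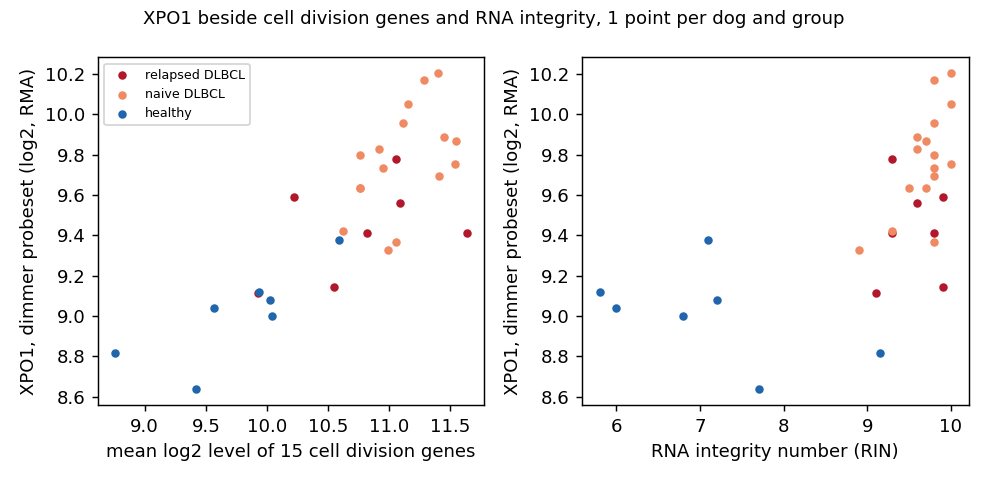
XPO1 at its dimmer probeset (log2) against the mean log2 level of 15 cell division genes (left) and against RIN (right) in relapsed DLBCL, naïve DLBCL and healthy nodes, 1 point per dog and group. Healthy dogs lie low and left in the left panel, and in the right panel all but 1 healthy dog lie below a RIN of 8.9.

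Across the 22 DLBCL dogs the members tended to vary together, though weakly. As a description over dogs, with arrays that share their normalisation, the median correlation of the 1176 member pairs was 0.19, against 0.01 for all gene pairs. The correlation with the cell division mean was above 0 for 42 of 49 members, with a median of 0.36, against 0.02 for all genes. It was highest for KPNA2 (0.91), RANGAP1 (0.84), KPNB1 (0.79) and TNPO1 (0.79). IPO7 (0.12) and NUP210L (0.07), the genes without overlap between DLBCL and healthy nodes, hardly followed it. The members most like the brightest XPO1 probeset were NUP155 (r = 0.67), NUP98 (0.63) and NUP43 (0.59), and among all genes CPOX (0.81), ZNF644 (0.81), MEAF6 (0.79), HNRNPR (0.78) and CALM2 (0.78). The part of cell division, T cell content and RNA integrity in the differences between DLBCL and healthy nodes was not tested.

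Genes of the same pathway outside the naming rule were counted in fixed lists, beside 20.0% of all genes higher and 14.8% lower. Of 8 further pore genes 5 were higher in DLBCL and 0 lower. SEH1L, a Y complex member, averaged 11.92 ± 0.23 in DLBCL and 11.30 ± 0.20 in healthy nodes (difference 0.62, adjusted p = 1.5e-05), and GLE1, which acts in messenger RNA export at the cytoplasmic face, differed by 0.53. Of 10 further RAN regulators and transport receptors 4 were higher and 0 lower. RCC1, the exchange factor that loads RAN with GTP in the nucleus, averaged 9.99 ± 0.33 in DLBCL and 9.05 ± 0.26 in healthy nodes (difference 0.94, adjusted p = 4.4e-06). NMD3, the export adaptor of the large ribosomal subunit that binds XPO1, was higher by 0.73 (adjusted p = 0.00022). Of 22 messenger RNA export genes 7 were higher, NXT2 by 0.72 and ENY2 by 0.59 the most. The 3 that were lower were NXF1 (-0.40), THOC3 (-0.33) and CHTOP (-0.15). Of 10 nuclear lamina genes TMPO (0.86) and LMNB1 (0.64) were higher and SUN1 was lower (-0.33), counts near the shares of all genes.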

How the data were processed

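RNA of 33 lymph node samples was measured on Affymetrix Canine Genome arrays. The authors amplified the RNA, used the Affymetrix Expression Console for RMA summaries, and deposited them as log2 expression values, which were used without further normalisation. RMA gives the arrays a common distribution, which hides shifts in the total RNA of a cell. Program versions, not given in the sources used here, are left out. Deposited values ranged from 2.2 to 15.49. The number of arrays limits the precision.

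Groups came from the sample labels. Moderated tests (lmFit and eBayes of limma 3.58.1, R 4.3.3) were run on every probeset, with Benjamini-Hochberg adjustment over 43035 probesets. DLBCL was set against healthy nodes over dogs, relapsed against naïve DLBCL over 23 arrays, and each DLBCL group against healthy nodes in a fit of 3 groups. A supplement lists dates for further arrays but does not tie them to single healthy samples, so array day was not used between DLBCL and healthy nodes. P-values measure the spread between the dogs sampled. Symbols came from the platform annotation, where 29264 probesets had 1 symbol, 439 several and 13332 none. Each gene took the value of its brightest probeset, by mean over 29 dogs. Array day was taken from dates beside array names in a supplement, and 18 DLBCL arrays were matched to them by sample number. No sample label gives this day, and that the numbers agree was not tested. The paper also names batches of RNA extraction, which the labels do not give and which were not used. Correlations were tested with Python 3.11.15 and scipy 1.17.1 by 100000 permutations, or by all of them in healthy dogs, two-sided, with Benjamini-Hochberg adjustment over 12 relations for each coefficient. On simulated data with 43035 probesets, log2 changes of 0.5, 1, 2 and 3 between DLBCL and healthy nodes were recovered in 62%, 86%, 100% and 100% of cases, and those between relapsed and naïve DLBCL in 46%, 66%, 96% and 100%. The simulated probesets were independent and normal, and few of them were changed. The adjusted threshold depends on how many probesets change, so these shares are not the power of the real comparisons.

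In each role the text names up to 4 genes of largest difference past the threshold and up to 2 that did not pass, the 3 of largest difference in relapsed DLBCL, and those most like XPO1. NUP107, IPO5, KPNA1 and IPO11 were named after their values were seen. The symbol rule used no measured value, but the gene group, its members and the lists were chosen with earlier results of these data known. Alternatives covered the treatment of repeated arrays, RIN, low values, centring, quantile normalisation, the one-way test of the methods, a replicate block, the mean of probesets and dogs left out.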

Additional observations from a re-analysis of the deposited data

Results flagged for a closer look

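In the groups of 7 dogs each of the 49 genes and the dimmer XPO1 probeset was searched for a dog far from the rest, by the gap to its nearest neighbour as a share of the whole range. Of 100 groups searched 13 had such a dog, where chance alone gives about 5%. In relapsed DLBCL, sample 18 was lowest for NUP155 at 5.68, with the others between 6.66 and 7.19, and for KPNB1 at 12.45, with the others between 12.98 and 13.33. This sample also had the lowest cell division mean of the tumours. Sample 9 was highest for NUP214 at 9.43, with the others up to 8.78, and sample 4 was highest for TNPO2 at 5.27, with the others up to 4.65, and lowest for KPNA3 at 11.75, with the others at least 12.25. Sample 13 was highest for KPNA7 at 6.37, with the others up to 5.80. Among healthy nodes, dog 1 was lowest for NUP62 at 8.03 and for CSE1L at 12.25, with the others at least 8.72 and 12.49. Healthy dog 4 was lowest for NUP155 at 5.09, NUP210 at 6.39 and NUP98 at 7.92, with the others at least 5.94, 6.65 and 8.33. It was highest for TPR at 12.68, with the others up to 12.43, and for IPO11 at 9.47, with the others up to 8.28. For XPO1 neither probeset had such a dog in either group.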

How the results depend on the processing

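Under 19 alternatives the number of the 49 genes higher in DLBCL stayed within a factor of 1.5 of 23, except with RIN as a covariate (1 gene) and with relapsed DLBCL alone against healthy nodes (12 genes). It was 30 with 33 arrays as separate samples, 31 with the mean of each gene's probesets and 20 to 23 when each healthy dog was left out in turn. No gene was lower under any of them. Relapsed against naïve DLBCL gave 0 member genes under the 6 alternatives that could be fitted, and the dog as a random block could not be fitted with 1 dog in both groups. XPO1 at its brightest probeset turned to -0.0541 with RIN as a covariate (adjusted p = 0.88) and to -0.0214 with relapsed DLBCL alone (adjusted p = 0.84), and passed at 0.35 with the mean of its probesets (adjusted p = 0.00066), since that mean includes the dimmer probeset. Without each healthy dog it lay between 0.03 and 0.07. The dimmer probeset kept its size but not its call with RIN as a covariate (0.62, adjusted p = 0.2) and lay between 0.60 and 0.72 without each healthy dog. KPNA6 turned to -0.0796 with relapsed DLBCL alone and TPR to -0.00355 with quantile normalisation repeated. KPNA1 turned to 0.115 with RIN as a covariate and 0.130 with the mean of its probesets. IPO11 turned to 0.233 with the replicate block and 0.00109 with naïve DLBCL alone, and lay between -0.12 and 0.10 without each healthy dog. None of these differences of KPNA1 and IPO11 passed. Centring the arrays moved the median of all probesets by 0.02. The causes were not tested. Sample numbers of the labels recur in both groups, but same-numbered arrays did not deviate together (r from -0.145 to 0.156 over 9 numbers), and the numbers do not pair the dogs. A replicate block on them, over 18 arrays, gave 24 genes higher, XPO1 at 0.12 for the brightest and 0.84 for the dimmer probeset, with CSE1L, NUP107 and IPO5 no longer passing and KPNA5, KPNA6, TNPO2 and XPO6 newly passing among the genes named in the text. Leaving out DLBCL samples 5 and 18 was chosen after seeing the data.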
